A study of Drosophila melanogaster with 4 samples.

Results

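The regions described here are those on the X chromosome of Drosophila melanogaster that were called as enriched for H4K20me1, histone H4 carrying a single methyl group on lysine 20. They are the 1209 enriched regions on X among 6850 on all sequences of the combined list, which was deposited for the replicate set as a whole. They were chosen by chromosome and by their label as enriched, without regard to width, score or replicate. Each was then checked against the regions on X in the list of replicate 1 (997 regions) and of replicate 2 (1007 regions). No region on X was of the depleted kind (0 rows).

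The material was chromatin of wild-type Oregon-R embryos at 14 to 16 h of development, fixed with formaldehyde, and the antibody was the fourth lot of one raised against H4K20me1. The study held 2 ChIP replicates and 2 inputs, DNA taken without immunoprecipitation, with 1 input named for each replicate. The labels give no sex for the embryos, nor whether separate egg lays gave the replicates, so their spread may be technical only. All groups shared the same strain, genotype and stage, so there was no treatment or mutant to compare.

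H4K20me1 is placed by the methyltransferase PR-Set7, known as SET8 or KMT5A in mammals, and is the substrate that Suv4-20 enzymes convert to higher methylation states. The mark is bound by proteins with MBT repeats such as L(3)MBT, and its level rises as cells pass through G2 and mitosis. X is of interest because it is dosage compensated. In Drosophila males the single X is transcribed at a raised rate through the MSL complex, which acetylates a neighbouring residue of the same tail, lysine 16. In the nematode Caenorhabditis elegans H4K20me1 is enriched on the compensated X chromosomes of hermaphrodites, and in mice it accumulates on the inactive X. These facts are background. Nothing in the lists measures transcription or dosage.

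Each region carries 1 score that the authors deposited. Differences between scores on X matched base-2 logarithms of small whole-number ratios within 1e-09 in 36 pairs of the combined list, 40 of replicate 1 and 55 of replicate 2, and natural or base-10 logarithms in 0, so scores are given as log2 ratios. What the ratio compares is not stated. Depth is unknown, because no read counts are in the lists. The embryos were whole, so a strong mark in few cells and a weak mark in many cannot be told apart. Positions are on FlyBase release 5, in which X is 22422827 bp long and runs from its telomeric end, at low positions, toward the centromere.

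H4K20me1 on X lay in many short regions and a few long ones. The combined list placed 6.06 Mb inside regions, 27.0% of the chromosome, and replicates 1 and 2 placed 5.03 and 5.06 Mb inside theirs, which is 22.5% ± 0.0755 (SD, n = 2). Region widths in the combined list ran from 1001 to 72950 bp with a median of 2769 bp, and the middle 50% lay between 1732 and 5343 bp. The replicates had medians of 2960 and 2989 bp, and no region of either was narrower than 1301 bp.

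A small set of broad regions held much of the marked sequence. Regions under 2 kb were 33.8% of all regions (409) and held 9.98% of the covered bases. Those of 2 to 5 kb numbered 474 and held 24.6%, those of 5 to 10 kb numbered 182 and held 21.1%, and those of 10 to 20 kb numbered 106 and held 23.8%. The 38 regions of 20 kb or more, called wide below, were 3.14% of regions and held 20.5% of the bases. The 181 widest regions together made up 50% of the covered bases. In the replicates, wide regions numbered 30 and 28 and held 18.5% and 18.0% of the bases.

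Broader regions had higher scores, and in the replicates the median levelled off at 10 to 20 kb. The plot of width against score draws the combined list, where the median rose through all the width classes below. In the combined list the median score was 0.40 under 2 kb and 0.62 for widths of 2 to 5 kb. It reached 0.97 between 5 and 10 kb, 1.15 between 10 and 20 kb and 1.25 in the wide regions. Replicate 1 gave 0.58, 0.84, 1.16, 1.39 and 1.31 in the same classes, and replicate 2 gave 0.56, 0.81, 1.12, 1.38 and 1.38, so that in neither did the median rise beyond 10 to 20 kb. Spearman's correlation of score with width across regions was 0.813 in the combined list, 0.832 in replicate 1 and 0.832 in replicate 2. It is a description, since regions of 1 chromosome share their libraries.

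Among the narrowest regions the order was different. In the combined list the 94 regions of 1000 to 1200 bp had a median score of 0.45, above the 0.37 of the 75 regions of 1200 to 1400 bp and the 0.36 of the 118 of 1400 to 1700 bp. From there the median rose to 0.39 at 1700 to 2000 bp, 0.52 at 2000 to 2500 bp and 0.62 at 2500 to 3000 bp. Replicate 1 also had a higher median at its narrow end, 0.60 below 1400 bp against 0.55 at 1400 to 1700 bp, and replicate 2 had 0.56 and 0.54. In all 3 lists the lowest median was thus not in the narrowest class, and it rose with width from 1700 bp on.

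**Figure D1:**
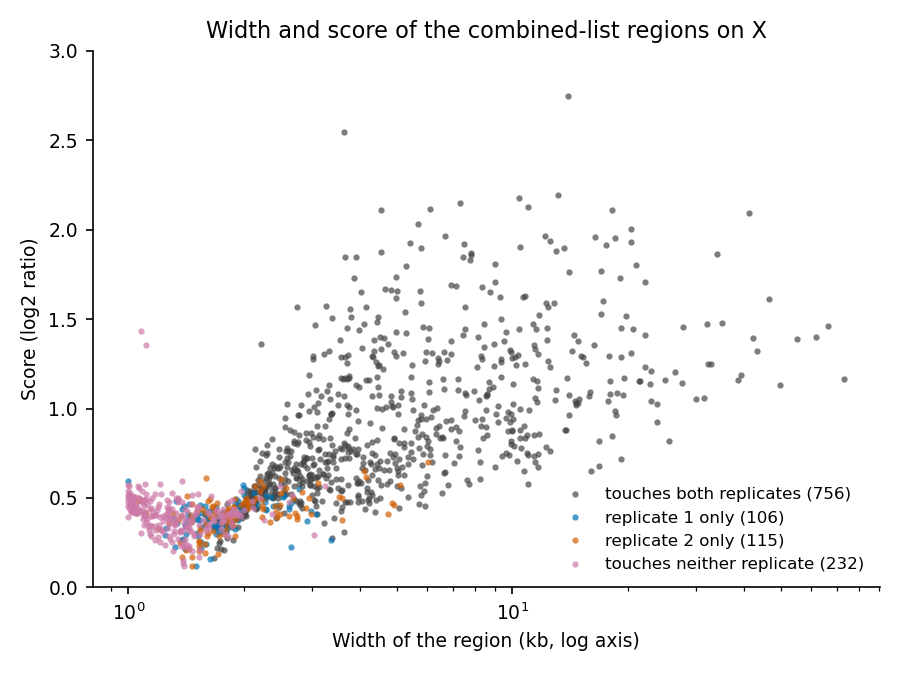
Width (kb, log axis) against score (log2 ratio) of the 1209 combined-list regions on X, each point a region, coloured by whether it touches regions of both replicates, of 1 or of neither. Regions in neither replicate reach 3250 bp at most, and 2 of them stand apart at scores of 1.43 and 1.36.

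The widest region of X ran from 12117123 to 12190072, 72.95 kb with a score of 1.17, and was called as 3 pieces covering 97.2% of it in replicate 1 and as 2 covering 98.9% in replicate 2. The next, from 2373826 to 2440090 (66.3 kb, score 1.46), was 1 region in replicate 2 and 3 in replicate 1. A region from 18859103 to 18920827 (61.7 kb, score 1.40) was whole in replicate 1 and in 2 pieces in replicate 2. The region from 580234 to 635399 (55.2 kb, score 1.39) was in 2 pieces in both. The other 6 of the 10 widest measured between 39.3 and 49.7 kb. The number of pieces thus differed between replicates for some of the widest regions.

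Of the 10 widest, the region from 2527729 to 2569054 had the highest score, 2.09, a 4.27-fold ratio. It was a single region in both replicates, 41344 bp wide with a score of 2.07 in replicate 1 and 41132 bp wide with a score of 2.12 in replicate 2. It was also the only one of the 10 widest that was among the 10 of highest score (1 region in both sets). The region from 8087045 to 8133479 (46.4 kb) followed at 1.61, with 1.61 and 1.77 in the replicates, and the remaining 8 scored between 1.13 and 1.46. The 10 widest thus all scored above the upper quartile of X, 0.96, and 1 of them scored above 2.

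All 38 wide regions touched both replicates, as did all 290 wide regions over all sequences. Replicate 1 covered 98.6% and replicate 2 98.1% of a wide region on X at the median. Only 12 of the 38 were a single region in each replicate. The lowest coverage by a single replicate was in the one from 1183648 to 1216499, of which replicate 2 covered 77.6% in 4 pieces and replicate 1 98.6% in 3. The most divided region of X ran from 3000786 to 3026300, with 6 pieces in each replicate covering 81.6% and 81.1% and a score of 0.82, the lowest of any wide region. Of all 1209 regions, 115 were split in replicate 1, 108 in replicate 2 and 56 in both.

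Wide regions were unevenly placed. The median distance from one to the next was 363 kb, but pairs lay almost end to end. From 19264927 to 19304186 and from 19304536 to 19332143 lay 2 wide regions with 349 bp between them, and only 488 bp separated those from 3705394 to 3729201 and from 3729690 to 3751844. A group of 3 lay within one stretch, from 12552888 to 12574354, from 12589786 to 12610352 and from 12611606 to 12634484. At the other extreme no wide region lay between 15057098 and 17369666, a stretch of 2312569 bp, nor beyond 19746588, toward the centromere.

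The highest score on X belonged to a region of intermediate width. It ran from 17550843 to 17564768 (13.9 kb) and scored 2.74, a 6.70-fold ratio, with 2.71 in replicate 1 and 2.82 in replicate 2. The second, from 6170153 to 6173803, was only 3651 bp wide and scored 2.55, with 2.63 and 2.52 in the replicates. Then came the regions from 6761862 to 6774976 (score 2.20), from 3848988 to 3859380 (2.17) and from 15721366 to 15728667 (2.15). The other 5 of the 10 highest scored between 2.09 and 2.13. Each of the 10 was a single region in both replicates, and in both replicates each scored 2.00 or more.

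These summits had different surroundings. The highest of all sat among 8 regions linked by gaps of at most 5 kb, and the second among 10. The third stood alone, with unmarked sequence of 20195 bp before it and 92578 bp after it. The region from 6423139 to 6427689 (score 2.11) had 156511 bp without a region before it and a neighbour 364 bp after it. High scores were thus found both inside groups of regions and at the edge of long unmarked stretches.

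Regions with a score of 1.5 or more numbered 75 in the combined list, 97 in replicate 1 and 86 in replicate 2. All 75 touched both replicates, against 98.4% of such regions over all sequences (633 of 643). They were 8343 bp wide at the median, 18 were under 5 kb and 7 were wide, and together they held 13.4% of the covered bases. The longest stretch of X without one ran from 12589262 to 15721365, 3132104 bp, and none lay beyond 20350031. With X cut into 5 equal parts from the telomeric end, the parts held 18, 21, 13, 15 and 8 of them.

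Neighbouring regions were mostly close together, and a minority of long gaps held most of the unmarked sequence. The median gap between neighbours was 2991 bp in the combined list, 3656 bp in replicate 1 and 3852 bp in replicate 2. Of the 1208 gaps of the combined list, 345 (28.6%) were under 1 kb and held 0.837% of all bases between regions. Another 404 were of 1 to 5 kb and 270 of 5 to 20 kb. The 153 gaps of 20 to 100 kb held 42.2%. The 36 gaps of 100 kb or more were 2.98% of gaps and held 35.1% of the bases between regions. In the replicates, 42 and 43 gaps were that long and held 42.4% and 41.7%. The mean gap, 13513 bp in the combined list, was accordingly much longer than the median, and the coefficient of variation of gap length was 2.34.

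**Figure D2:**
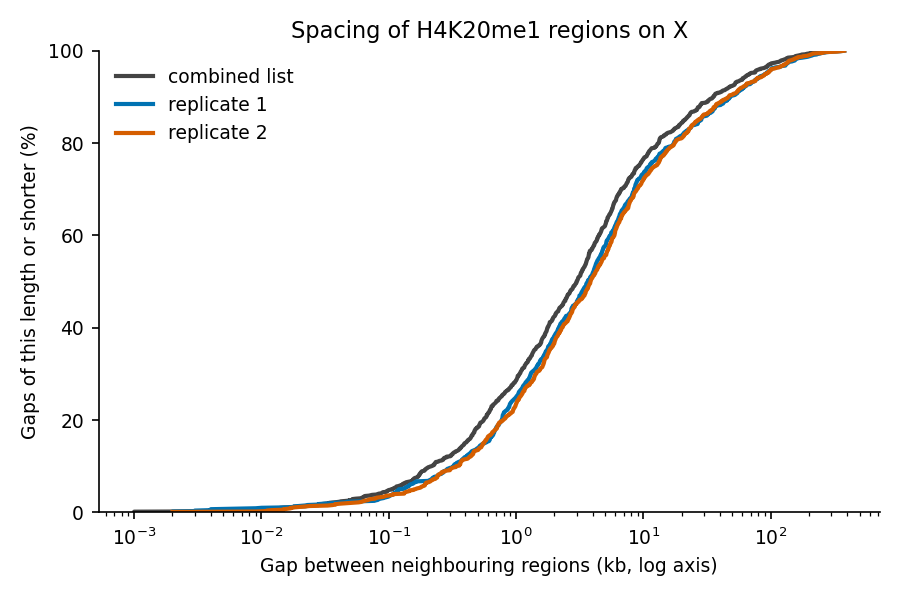
Cumulative share of gaps between neighbouring regions on X (vertical axis, %) by gap length (horizontal axis, kb, log axis; gaps of 0 drawn at 1 bp), 1 line for each list. The line of the combined list lies left of both replicates, with medians of 2991, 3656 and 3852 bp.

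To describe the clustering, regions were grouped into chains, in which each region lies at most 5 kb from the next. The 1209 regions formed 459 chains. Of these, 186 were single regions, 207 held 2 to 4 regions and 66 held 5 or more. Chains of 2 or more held 84.6% of the regions, and the 66 longest-membered chains alone held 467 regions (38.6%). Replicate 1 gave 423 chains with 80.4% of its regions in chains of 2 or more, and replicate 2 gave 447 chains with 77.7%. A distance of 10 kb gave 285 chains in the combined list and 2 kb gave 697, so the number depends on the distance chosen.

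Standing alone or in a chain went with little difference in the regions themselves. The median score was 0.54 for single regions, 0.58 in chains of 2 to 4 and 0.57 in chains of 5 or more, and the middle 50% of scores ran from 0.43 to 0.99, from 0.43 to 0.97 and from 0.42 to 0.94. Median widths were 2498, 2780 and 2826 bp. Scores of direct neighbours were only weakly related, with a Spearman correlation of 0.132 in the combined list, 0.0665 in replicate 1 and 0.0987 in replicate 2. Of widths the same correlation was 0.138, 0.101 and 0.0873. Neighbours on X thus shared little of their level or width.

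The longest chain spanned 147.7 kb from 4997456 to 5145163, held 9 regions and was 92.3% marked, with scores between 0.51 and 1.16. In the replicates, 11 and 15 regions covered 87.2% and 86.2% of it. The second ran from 12097811 to 12225587 (127.8 kb), held 5 regions including the widest of X, and was 95.8% marked. The third, from 9230907 to 9343460 (112.6 kb), had 15 regions with a median score of 0.51. Replicate 1 covered 71.6% of it and replicate 2 60.8%, and 9 of its 15 regions touched both replicates. The fourth ran from 14726842 to 14831468 (104.6 kb, 16 regions, median score 0.93) and the fifth from 580234 to 682119 (101.9 kb, 9 regions, median score 0.64). The replicates covered 91.2% and 88.7% of the second chain and 83.1% and 79.0% of the fifth, so that of the 5 the third was covered least in both.

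The longest gap of the combined list, 346.3 kb, ran from 21501374 to 21847708 and was 353.2 kb in replicate 1 and 353.1 kb in replicate 2. Its telomeric neighbour was 6032 bp wide and scored 1.39. The second, from 7237398 to 7502515 (265.1 kb, with 266.2 and 266.4 kb in the replicates), lay between a region with a score of 1.96 and a wide region of 22939 bp with a score of 1.04. The third ran from 20395894 to 20654559 (258.7 kb) between 2 weak regions with scores of 0.34 and 0.46. The fourth, from 4100183 to 4322505 (222.3 kb), began at the end of a wide region of 42173 bp with a score of 1.40. It measured 233.6 kb in replicate 1 and 330.4 kb in replicate 2, the only one of the 5 whose length differed between replicates by more than 20 kb. The fifth, from 21259242 to 21471416, was 212.2 kb in the combined list and 212.3 and 212.2 kb in the replicates. Both replicates had a longer gap elsewhere, 378.1 kb from 13724276 to 14102327 in replicate 1 and 378.2 kb from 13724267 to 14102449 in replicate 2. The combined list has 2 regions inside it that touch neither replicate, from 13891629 to 13893092 (score 0.20) and from 14099532 to 14101301 (score 0.38). Of the 5 longest gaps of the combined list, 3 lay in the last part of X, next to the centromere, when X is cut into 5 equal parts.

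Regions beside long gaps were somewhat wider than the rest at the median in all 3 lists. The 70 regions next to gaps of 100 kb or more in the combined list were 2937 bp wide and scored 0.59 at the median, against 2755 bp and 0.57 for the other 1139. Of them, 12.9% were 10 kb wide or more, against 11.9%, while the shares were 15.7% against 10.8% in replicate 1 and 15.3% against 10.1% in replicate 2. In the replicates the flanking regions had median widths of 3341 and 3421 bp, against 2943 and 2927 bp for the rest, and median scores of 0.82 and 0.88, against 0.83 and 0.80. No test was made of these differences.

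Seen in windows of 500 kb, marked sequence rose and fell along X in the same way in both replicates. Coverage of the 45 windows ran from 3.18% to 41.3% in replicate 1 and from 2.85% to 40.8% in replicate 2. Pearson's correlation of the replicates across windows was 0.984 and Spearman's 0.981, given as a description. The replicates differed by 0.799 percentage points at the median window and by 5.66 at most. That largest difference was in the window from 5500001 to 6000000, with 23.1% in replicate 1 and 17.5% in replicate 2.

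**Figure D3:**
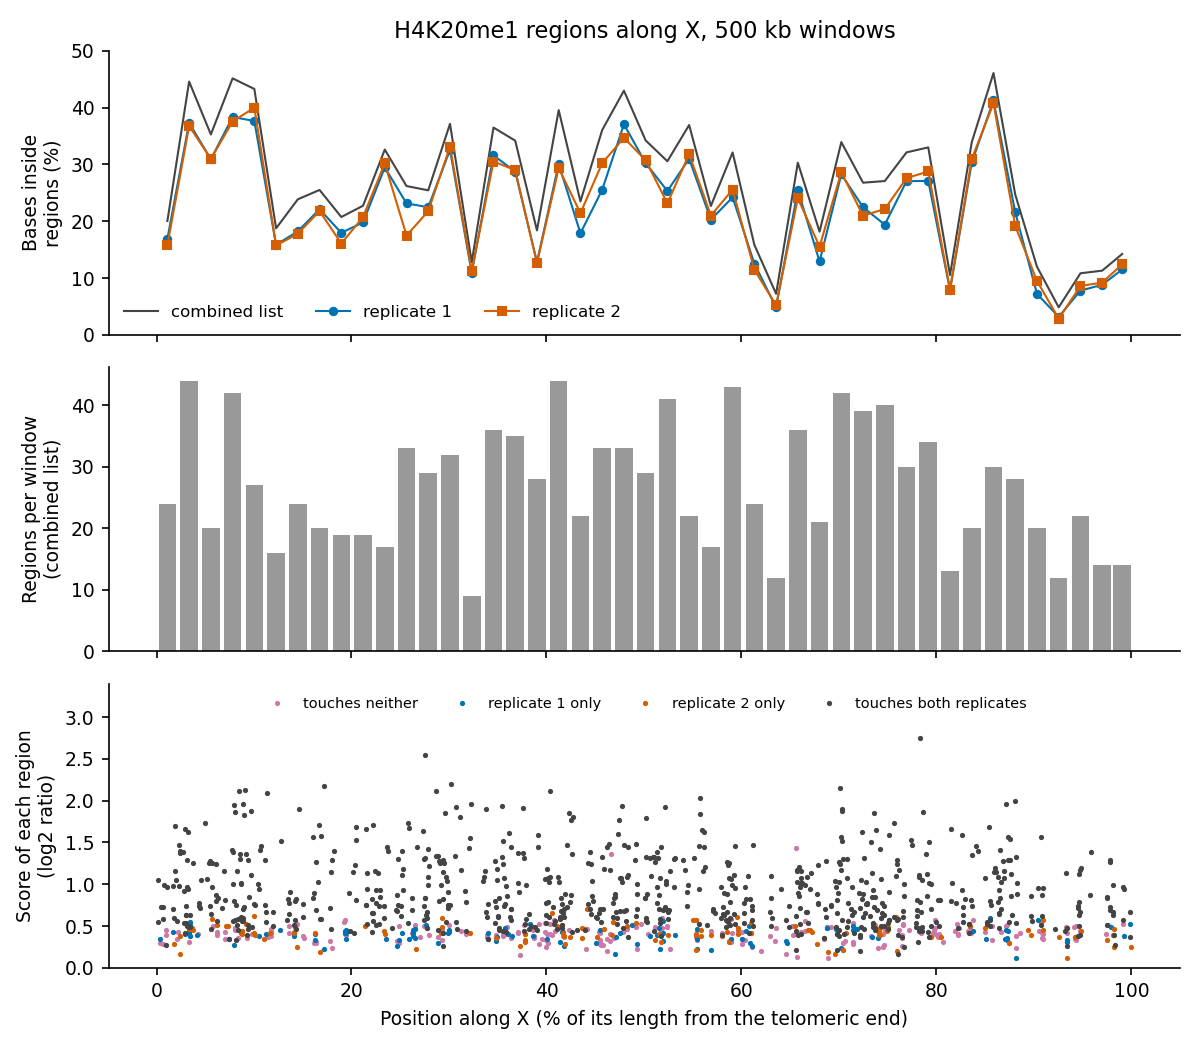
Along X, in percent of its length from the telomeric end: top, percent of each 500 kb window inside regions in each list; middle, number of combined-list regions per window; bottom, score (log2 ratio) of each combined-list region, coloured by the replicates it touches. Coverage peaks at 41.3% and 40.8% in the replicates toward the right and is lowest, at 3.18% and 2.85%, close to the centromeric end.

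The densest window was from 19000001 to 19500000, with marked shares of 41.3% and 40.8% in the replicates and 46.1% in the combined list. It held 30 regions, of which 2 were wide. Next were the windows starting at 2000001 (37.6% and 40.0%), at 1500001 (38.3% and 37.5%), at 500001 (37.3% and 36.8%) and at 10500001 (37.1% and 34.7%). Of the 5 densest windows, 3 thus ended at or before position 2500000. They were dense in different ways, since the window starting at 500001 held 44 regions with a median width of 2767 bp and the one starting at 2000001 held 27 with a median width of 5361 bp.

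The sparsest window was from 20500001 to 21000000, with 3.18% in replicate 1 and 2.85% in replicate 2, and its 12 regions had the lowest median score of all windows, 0.43. It was followed by the windows starting at 14000001 (4.86% and 5.22%), at 18000001 (7.90% and 7.96%), at 21000001 (7.81% and 8.62%) and at 20000001 (7.23% and 9.51%). None of these 5 held a wide region. The window starting at 18000001 was directly followed by one marked over 30.3% and 31.0%, so sparse and dense stretches could be direct neighbours. The Spearman correlation of a window's coverage in the combined list with that of the next window was only 0.184.

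Coverage of a window went more with the number of its regions than with their median width or score. It is itself made up of the number of regions and their widths, and a median width gives little weight to the few wide ones. Across the 45 windows the Spearman correlation of combined-list coverage was 0.690 with the number of regions, 0.370 with their median width and 0.394 with their median score. Median scores per window stayed between 0.43 and 0.92. The value of 0.92 came from the window with the fewest regions (9), from 7000001 to 7500000, which was marked over 10.9% and 11.2% and had a region with a score of 1.96. Regions with a score of 1.5 or more were in 33 windows, with at most 5 in any window, and wide regions in 27.

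At finer scale, in windows of 100 kb, 31 of 224 windows were free of regions in replicate 1 and 31 in replicate 2, and 27 were free in both. The combined list left 21 free. The longest run of windows empty in both replicates was from 13800001 to 14100000. Marked over 50% or more were 26 windows in replicate 1, 26 in replicate 2 and 21 in both. Coverage reached 92.9% and 92.6% in the window from 12100001 to 12200000 and 92.1% and 92.4% in the one from 5000001 to 5100000. At this scale X thus held stretches that were almost fully marked and stretches with no called region at all.

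From end to end, X was marked most in its middle and telomeric parts. Cut into 5 equal parts from the telomeric end, the replicates covered 26.1% ± 0.220, 23.2% ± 0.363, 27.4% ± 0.514, 20.2% ± 0.305 and 15.6% ± 0.141 (SD, n = 2 for each). The order of the parts was the same in both replicates. Regions per Mb in the combined list were 52.6, 52.0, 63.6, 62.0 and 39.5, so the fourth part had nearly as many regions as the third but less marked sequence. Its regions were narrower, with a median of 2596 bp against 2919 bp, and it had 4 wide regions against 9.

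Scores varied less along X than coverage. In replicate 1 the median score of the 5 parts was 0.83, 0.83, 0.84, 0.81 and 0.82, and in replicate 2 it was 0.80, 0.86, 0.82, 0.76 and 0.84. In the combined list the medians were 0.564, 0.637, 0.596, 0.543 and 0.537, in order from the telomeric end. The part next to the centromere, marked least, thus had the lowest median score in the combined list but in neither replicate. It had the fewest regions, 177, and 11 gaps of 100 kb or more, against 4 to 8 in the others.

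The first region of X began 28666 bp from the telomeric end of the sequence and ran from 28667 to 32012, with a score of 1.05 and of 1.11 and 1.08 in the replicates. At the centromeric end the last region of the combined list ran from 22413830 to 22415415 with a score of 0.24, and was present in replicate 2 (0.35) and absent from the list of replicate 1. The last 2 Mb held 62 regions with a median score of 0.49 and a widest region of 18499 bp. They were marked over 7.39% in replicate 1 and 7.80% in replicate 2, and 35 of the 62 regions touched both replicates. Beyond the assembled arm, the separate heterochromatic sequence XHet had 1 region in the combined list, 1588 bp wide with a score of 0.28, and 0 in each replicate.

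Both replicates backed most regions of X, and nearly all of the strong ones. Of the 1209 regions, 756 (62.5%) touched a region of both replicates by at least 1 base, against 67.6% over all sequences. Another 106 touched replicate 1 only, 115 touched replicate 2 only, and 232 (19.2%) touched neither, against 15.7% over all sequences. The libraries behind all 3 lists are the same, so touching is a check of the call and no independent evidence. Counted in bases, regions touching both made up 87.5% of the marked sequence of X, against 90.1% over all sequences. Regions touching neither made up 5.27%, against 3.89%.

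Support on X differed steeply around a score of 0.6. Below 0.4, 13.2% of regions touched both replicates (30 of 228), against 20.1% over all sequences, X included. Between 0.4 and 0.6 the share was 39.1% (159 of 407), against 60.7%. Between 0.6 and 0.8 it was 97.3% (178 of 183), against 98.1%. Between 0.8 and 1 it was 100% (111 of 111), against 98.7%. By width, 0 of 125 regions under 1300 bp touched both, and 0 of 629 over all sequences. Of those of 5 to 10 kb 98.9% did, against 99.6% over all sequences. All 106 of 10 to 20 kb and all 38 wide ones did, against 99.8% and 100%. No replicate region was as narrow as 1300 bp.

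The 232 regions in neither replicate were narrow, with a median of 1292 bp, and 118 of them were narrower than any region of replicate 1. Their median score was 0.41. Of them, 121 (52.2%) lay within 5 kb of a region touching both replicates, and 55 lay more than 20 kb from one. The widest was from 12412820 to 12416069, 3250 bp with a score of 0.57, and the next, from 3614143 to 3617195, had 3053 bp and 0.29. The others of the 5 widest measured 2661, 2617 and 2483 bp.

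Against that pattern, 2 of the 232 had high scores. One, from 14716906 to 14717986, had a width of 1081 bp and scored 1.43, a 2.70-fold ratio. The other, from 10445387 to 10446496, had a width of 1110 bp and scored 1.36. The next 3 of the 232, from 11636653 to 11638028, from 13216197 to 13217405 and from 4339787 to 4340892, scored 0.59, 0.58 and 0.58. The 2 of high score were narrower than any region in the replicate lists, whose narrowest were 1301 and 1302 bp, and whether those lists had a lower bound on width is not stated in the sources used here.

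Few replicate regions were missing from the combined list, 2 of replicate 1 and 3 of replicate 2. All 5 were absent from the other replicate as well and scored between 0.40 and 0.59. In replicate 1 they ran from 1847537 to 1849004 (score 0.49) and from 19561657 to 19563364 (0.43). In replicate 2 they ran from 15479798 to 15481255 (0.59), from 9883956 to 9885751 (0.56) and from 16631915 to 16633224 (0.40).

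Set against each other directly, 886 of the 997 regions of replicate 1 (88.9%) touched a region of replicate 2, against 90.8% over all sequences. Of the 1007 regions of replicate 2, 885 (87.9%) touched one of replicate 1, against 88.5%. The 111 found in replicate 1 alone scored 0.58 and measured 1620 bp at the median, and the shared ones 0.87 and 3373 bp. In replicate 2 the 122 found there alone had 0.59 and 1679 bp, and the shared ones 0.86 and 3393 bp. The strongest region seen once scored 0.83 in replicate 1 and 1.09 in replicate 2. In bases, 4.56 Mb of X was marked in both replicates and 5.53 Mb in either, a ratio of 82.5%.

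Bounds and levels of single regions were close. For 583 regions of the combined list there was exactly 1 counterpart in each replicate, which touched each other and no other combined region. Their 1166 edges differed between replicates by 133 bp at the median, by at most 100 bp in 40.7% and by at most 500 bp in 87.1%, and the largest difference was 3202 bp. Replicate scores were correlated across these regions at 0.942 (Pearson) and 0.902 (Spearman), a description only, and the median absolute difference was 0.09. That difference was 0.08 for regions with a mean score below 0.8, 0.09 between 0.8 and 1.2, and 0.10 above. These values hold for regions called in both replicates and say nothing of the weak regions that were not.

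**Figure D4:**
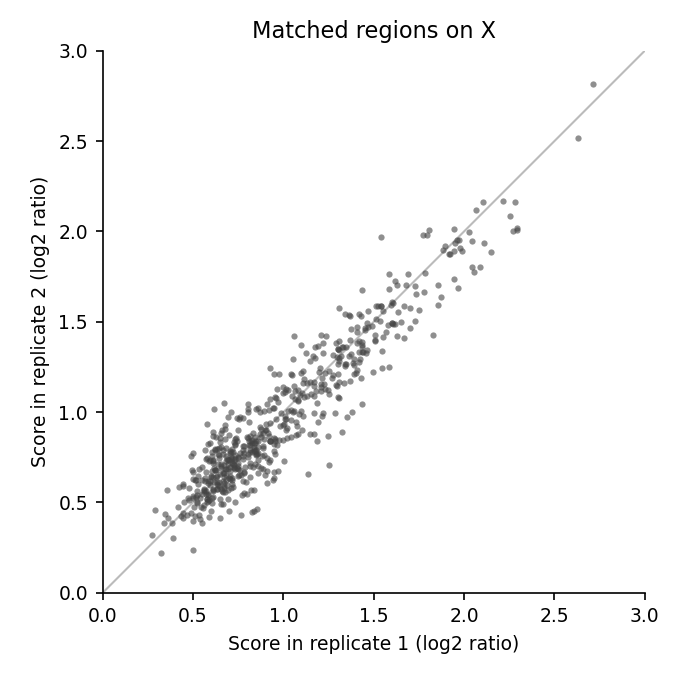
Score (log2 ratio) in replicate 1 against replicate 2 for the 583 matched regions of X, each point a region, with the line of equal scores in grey. Points follow the line over the whole range, with a median absolute difference of 0.09 and a largest of 0.55.

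The largest disagreement was for the region from 8332394 to 8335492, with scores of 1.25 and 0.71 in replicates 1 and 2 and 0.90 in the combined list. Replicate 1 had the higher score in 325 of the 583 (55.7%), and the difference was 0.02 at the median. The combined list gave lower values than both replicates in 363 of them (62.3%), and its score minus the replicate mean was -0.06 at the median. Its regions were also wider, 3629 bp at the median against 3173 and 3087 bp, and contained both counterparts whole in 322 (55.2%). Scores of the combined list were thus mostly slightly lower than those of the replicates for the same regions.

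Beside the arms 2L, 2R, 3L and 3R, X had longer gaps between neighbouring regions, values given here without a test since each is 1 stretch of sequence. The number of regions per Mb was lowest on X in the replicates, 44.5 and 44.9 against at least 47.6 and 47.3, but in the combined list X had 53.9 and 2L had 52.9. Its median gap was the longest of the 5 in every list, 3656 and 3852 bp in the replicates against 2593 to 2833 bp and 2794 to 3042 bp on the other arms. Gaps under 1 kb were the least frequent in every list, 25% in replicate 1 and 23.4% in replicate 2, against 28.2% to 30.9% and 27.7% to 29.6%. Chains of 2 or more held 80.4% and 77.7% of the regions, against 83.2% to 85.7% and 80.7% to 84.4%. Wide regions held 18.5% and 18.0% of the covered bases, against 21.2% to 26.6% and 23.0% to 27.5%. Gaps of 100 kb or more took up 32.8% and 32.3% of the length of X, against 21.9% to 31.2% and 19.9% to 29.3%. In the combined list that share was 25.6% on X and 25.02% on 2L, the next highest.

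**Figure D5:**
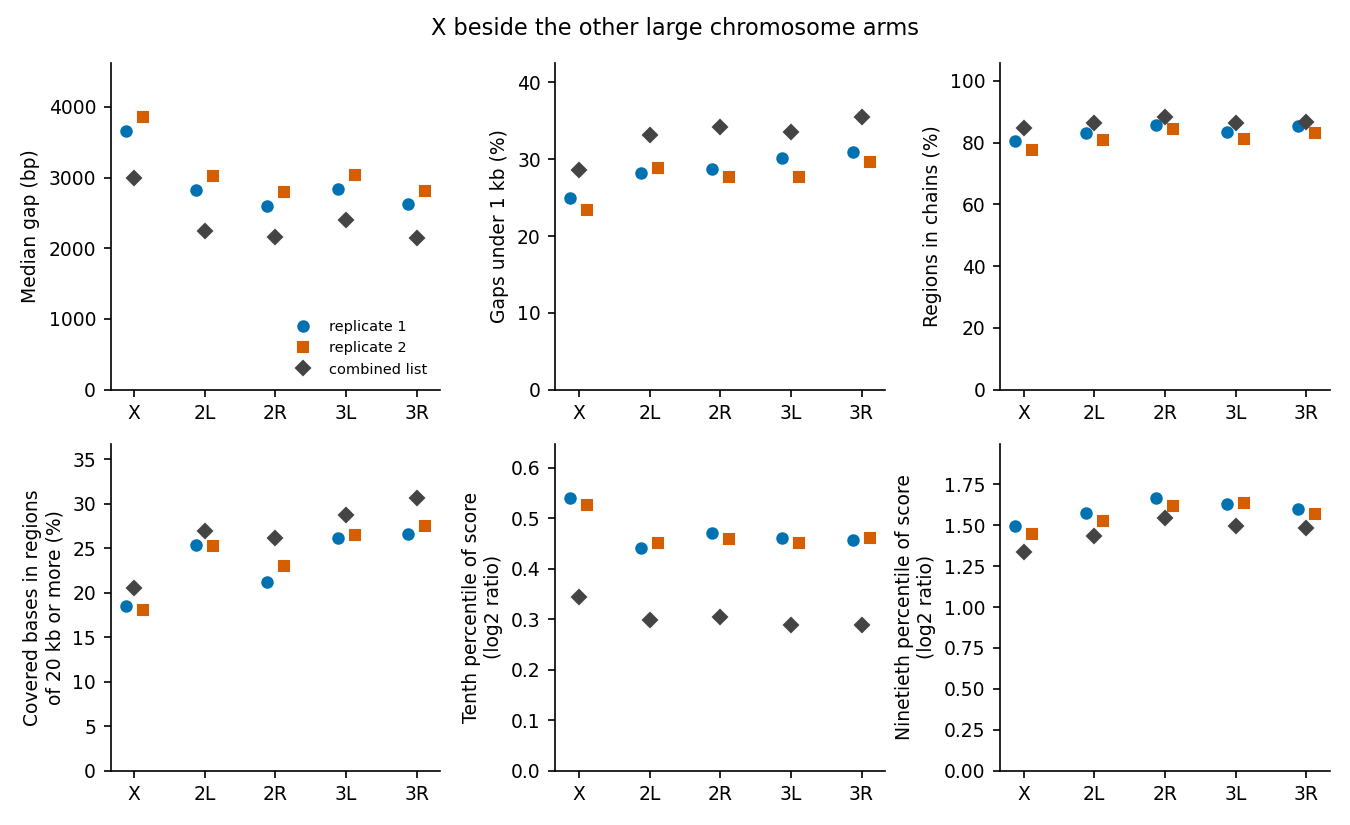
Median gap, share of gaps under 1 kb, share of regions in chains of 2 or more, share of covered bases in regions of 20 kb or more, and the score below which 10% and 90% of regions lie, for X and 4 other arms; circles, replicate 1; squares, replicate 2; diamonds, combined list. X has the longest median gap, 3656 and 3852 bp in the replicates, and the narrowest span between the bounds of score. Its lower bound is 0.54 and 0.53 and its upper bound 1.49 and 1.45 in the replicates.

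Coverage of X was the lowest of the 5 arms, 22.4% and 22.5% in the replicates against at least 24.7% and 25.6%, and its spread over windows was also the lowest in percentage points. The SD of coverage over 500 kb windows was 9.76 percentage points in replicate 1 and 9.71 in replicate 2. On the other arms it was 10.6 to 14.6 and 11.3 to 15.4. These SDs are not scaled to coverage, so they do not show X to be more evenly marked. The densest window of X was the least dense of the 5 arms' densest windows in each list, at 41.3% and 40.8% in the replicates against at least 47.1% and 50.3% elsewhere.

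Within width classes, narrow regions had higher median scores on X than on the other arms and wide ones had lower, again without a test. Under 2 kb the median score was 0.58 on X and 0.47 to 0.49 on the other arms in replicate 1, and 0.56 against 0.47 to 0.48 in replicate 2. At 2 to 5 kb the medians were 0.84 against 0.77 to 0.78, and 0.81 against 0.72 to 0.77. In wide regions they were 1.31 against 1.46 to 1.66, and 1.38 against 1.49 to 1.63. Between 5 and 20 kb X lay within the range of the other arms in both replicates. In the combined list it did so at 10 to 20 kb only. At 5 to 10 kb its combined-list median was lower, 0.97 against 0.99 to 1.05. In the combined list the same ends held, with 0.40 against 0.33 to 0.34 under 2 kb and 1.25 against 1.42 or more in wide regions. Males hold a single X and the labels give no sex, so the copy number of X in the material is unknown. How copy number or depth bears on the differences between X and the other arms was not tested.

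Shares of regions touching both replicates were lower on X than on the other arms within classes of low score, again without a test. For classes of width, X is set beside all sequences, which include X and so draw the shares together. Below a combined-list score of 0.4, 13.2% of regions on X touched both replicates, against 19.4% to 23.8% on the other arms. With scores of 0.4 to 0.6, 39.1% did so on X, against 64.7% to 71.1% on the other arms. With scores of 0.6 to 0.8 the shares were 97.3% and 97.5% to 100%. Since narrow regions scored higher on X, an equal score class does not hold like regions. By width, 12.7% of regions of 1300 to 2000 bp touched both on X, against 19.6% over all sequences. At 2 to 5 kb the shares were 83.5% and 84.6%, and between 5 and 10 kb 98.9% and 99.6%. The ratio of bases marked in both replicates to those in either was 82.5% on X and 84.9% to 86.8% on the other arms.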

How the data were processed

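H4K20me1 was profiled by ChIP-seq in 2 replicates with 2 inputs, and 3 lists of regions were used, 1 for each ChIP replicate and 1 for the replicate set. Lists for the inputs were not analysed here. Alignment used Bowtie 0.12.7 (per the submitters' processing notes), and positions are on FlyBase release 5, per the file headers. The region caller and its settings, and how the combined list was made, are not stated by the labels or headers. The score per region was deposited by the authors without a definition, and was used within a list or between overlapping regions.

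Coverage is the percentage of the length of X, from the file headers, inside regions. Touching needs 1 shared base. Windows shorter than 50% of their full length were left out. With 1 condition and 2 replicates no test was possible between groups, and none was made over regions or windows. The members, classes and most bounds were chosen with earlier results of these data known. Alternatives were a filter at the median score, merging of regions less than 1 kb apart, 50% overlap, other windows and distances, and each replicate alone. Regions named were the 10 widest and 10 highest in score, the 5 longest gaps and chains, the 5 densest and sparsest windows, the 5 widest and highest in no replicate, the end regions, and in each replicate the 3 highest found in no other list. Others were chosen after their values were seen. Genes and sequences under the regions were not analysed here, since the gene table at hand describes another release of the genome. Depth per library is unknown, so no counting interval is given. Interval calculations were tested on simulated data. Calculations used numpy 2.4.6, scipy 1.17.1 and pandas 2.3.3 in Python 3.11.15, and figures matplotlib 3.10.9.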

Additional observations from a re-analysis of the deposited data

How the results depend on the processing

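Keeping only regions at or above the median score of their list, which by construction removes the weak ones, left 609 regions on X with a median width of 5160 bp and a median gap of 7023 bp. Coverage was then 18.0%, the share touching both replicates 70.9% and the ratio of bases in both replicates to either 80.1%. The correlation of the replicates over 500 kb windows was 0.969, and the Spearman correlation of score with width 0.518. Each list was cut at its own median, and the replicate lists scored higher, with medians on X of 0.83 and 0.81 against 0.57. A combined-list region could thus be kept while its replicate counterpart was removed. Without the filter, 97.3% of combined-list regions on X with scores of 0.6 to 0.8 touched both replicates, and 99.5% at 0.8 or more. Merging regions less than 1 kb apart gave a median width of 3591 bp and a median gap of 5366 bp in the combined list. Mean coverage of the 2 replicates was then 23.0% against 22.5% before, with 66.6% touching both and a ratio of 82.9%. Requiring each replicate to cover 50% of a region lowered the share touching both to 59.7%. Windows of 100 kb and 1 Mb gave correlations of 0.987 and 0.990. Chains linked over 2 kb numbered 697 and over 10 kb 285. With 1 replicate left out, the list of the other gave a median width of 2960 to 2989 bp, a median gap of 3656 to 3852 bp, a median score of 0.81 to 0.83 and a Spearman correlation of 0.832 in both, each apart from the combined list by more than the replicate SD. Region counts were then 997 to 1007 and coverage 22.4% to 22.5%. In the combined list, merging turned 1209 regions into 864, and the score filter lowered 459 chains to 359. Each replicate alone, without the filter, gave 423 to 447 chains. Of 34 values under alternatives, 26 went beyond their limit or had no limit to judge by. The limit was the replicate SD, or 1.5 times for counts of regions and chains. For the share touching both replicates it was 2.72 percentage points. That limit came from a 95% Wilson interval for a share, which takes regions as independent, and is no replicate spread. The other 8 lay within those limits, and 0 of 34 changed sign. Apart from what the filter, merging and linking do by construction, the cause was not tested. No paired analysis was possible because there is 1 condition and no value comes from a test between groups. Depth is unknown, and regions with scores below 0.6 were the ones least often found in both replicates.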
